A study of Solanum lycopersicum with 15 samples.

Results

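The comparison described here set *slscz* hairy roots directly against *slexo1* hairy roots of tomato (*Solanum lycopersicum*, cultivar M82), with no wild type in the contrast. It used the 12 mutant libraries of the 15 in the series, chosen by genotype from the labels: 6 *slscz* libraries (3 each of lines *slscz-hr5* and *slscz-hr12*) and 6 *slexo1* libraries (3 each of lines *slexo1-hr6* and *slexo1-hr7*). The other 3 libraries were wild-type controls, hairy roots of the same cultivar that carried no editing vector, which entered the fit for the shared spread and are given as a further level beside each mutant pair. Hairy roots are roots that *Rhizobium rhizogenes* induces on transformed tissue, and each line stems from 1 transformation event, so 2 lines stand for each genotype. All groups were sampled as the terminal 3 cm of roots grown on plates of MS medium with vitamins and 3% sucrose, with 6 to 7 tips pooled for a library, and RNA was sequenced from the 3′ ends of transcripts. The study's methods call the libraries of a line biological replicates, and no source used here says what was separate between them, so the p-values below measure the spread between these libraries. The mutant libraries held 2726538 to 5873678 counts in *slscz* and 3883717 to 6020912 in *slexo1*, with 3348822 to 8942819 in wild type.

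SlSCZ (Solyc04g078770) is the tomato homologue of SCHIZORIZA, a heat-shock-type transcription factor that sets cortex identity in Arabidopsis, and SlEXO1 (Solyc09g011120) is a C2H2 zinc finger transcription factor. The exodermis is the outermost cortical layer, and in tomato it lays down a cap of lignin on its outward side. The endodermis, the innermost cortical layer, instead builds the Casparian strip, a lignin ring whose regulators and scaffold proteins are known. Both genes were edited in a study of where this lignin is placed, and the direct contrast asks which transcripts set the mutants apart from each other.

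The guides are shown because they say where each gene was cut, and the sequences recovered from *slexo1* lines because they show how the alleles differ. Each gene was targeted with 3 guides of 20 bases, which the study's guide table lists as follows, 5′ to 3′, for SlSCZ on chromosome 4 and SlEXO1 on chromosome 9.
SlSCZ guide 1: tattgtttcttggggtgaag
SlSCZ guide 2: cattcatatcatacgggttc
SlSCZ guide 3: acccgagtaattataacccg
SlEXO1 guide 1: gcttttgctgaagatgcagc
SlEXO1 guide 2: gagcacttggagggtgtata
SlEXO1 guide 3: tgcctctggggttccaatta

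Both *slscz* lines were listed with a deletion that runs between guide sites from exon 1 into exon 2 and ends in an early stop. Guide 1 of SlEXO1 left no edit in either *slexo1* line. Line *slscz-hr12* in addition to its deletion lost 1 amino acid at guide 1, where *slscz-hr5* was unedited. In *slexo1-hr6*, 1 base had been inserted at each of guides 2 and 3, in capitals below, although it lies in a run of the same base and its exact place cannot be told.
*slexo1-hr6* at guide 2: cacttggagggtgTtatatggccaccaag
*slexo1-hr6* at guide 3: tctggggttccAaattagggtttcttc

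Line *slexo1-hr7* was listed with multiple mutations at the same sites, and its sequences differ in kind from those of *slexo1-hr6*. The capitals below mark the longest match, on the opposite strand, to the *slexo1-hr6* sequence at the other guide without its inserted base. These are 13 bases of the guide 3 sequence at guide 2, and 12 bases of the guide 2 sequence at guide 3. At guide 2 the last g also matches guide 3 itself, at a base that the *slexo1-hr6* sequence does not reach.
*slexo1-hr7* at guide 2: ggagggtgtTTGGAACCCCAGAg
*slexo1-hr7* at guide 3: TGGTGGCCATATttagggtttctt

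Neither edited gene was called between the mutants. SlSCZ had 3.32, 6.88 and 8.42 CPM (counts scaled to library size, with library sizes corrected by the trimmed mean of M-values, TMM) as lowest, median and highest value in *slscz*, against 3.35, 4.82 and 6.44 CPM in *slexo1*. The wild-type libraries had 4.61, 6.33 and 4.16 CPM, and all groups overlapped. The fitted *slscz* minus *slexo1* difference was 0.32 ± 0.24 (log2, SE; 95% interval −0.17 to 0.81; adjusted p = 0.337, limma-voom). Its sign was not stable, being −0.0219 without line *slscz-hr12* and −0.365 in the number 4 libraries alone, and in the libraries numbered 2 and 3 it was 0.73 (adjusted p = 0.0328). SlEXO1 had 0.384, 3.71 and 5.16 CPM in *slscz* against 3.19, 4.20 and 6.15 CPM in *slexo1*, a difference of −0.45 ± 0.33 (adjusted p = 0.327). Since the edits lie in the first exons and the assay reads the 3′ end, these values do not test whether the genes were disrupted.

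Across the transcriptome the genotypes were far apart. Of 16189 genes tested, 3848 (23.8%) were called, at an adjusted p of at most 0.05 and a difference of at least 1.3-fold. In *slscz*, 1774 of them were raised (11%) and 2074 lowered (12.8%) relative to *slexo1*, with median differences of 0.67 and −0.80 (log2). A difference of at least 2-fold was met by 486 higher and 767 lower genes, and one of at least 8-fold by 30 higher and 51 lower genes. The higher genes were 46.1% of the calls with TMM scaling but 32.5% when libraries were scaled by their size alone. Their share was 51.3% with no fold threshold, 38.8% at 2-fold and 50.5% without line *slscz-hr5*, so which direction holds more genes depends on these choices. Scaling by size alone moved the median of all genes to −0.09, against −0.003 with TMM. The TMM factors of the groups did not overlap (0.958 to 1.00 in *slscz*, 1.03 to 1.07 in *slexo1*). The 10 most abundant genes took 7.06 to 8.98% of counts in *slscz* and 8.25 to 9.17% in *slexo1*. The part of library composition in the called differences was not tested.

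The lines of 1 genotype gave a yardstick for these counts, with the same 3 against 3 libraries. Between genotypes, *slscz-hr5* differed from *slexo1-hr6* in 3287 genes (20.3%) and from *slexo1-hr7* in 2685 (16.6%), and *slscz-hr12* differed from them in 2628 (16.2%) and 2260 (14%) genes. Within a genotype, *slscz-hr12* differed from *slscz-hr5* in 17 genes (0.105%), and *slexo1-hr6* from *slexo1-hr7* in 56 genes (0.346%). At an unadjusted p under 0.05 these within-genotype pairs had 773 and 1164 genes, against 4466 to 5428 for the pairs between genotypes. The SD of the fitted log2 difference over all genes was 0.68 to 0.70 between genotypes and 0.37 and 0.38 within them. Leaving out single libraries moved the within-genotype counts to 5 to 19 and 20 to 62, still far below every pair between genotypes. Whatever else the genotypes did not share in culture or handling cannot be told apart from the genotype.

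**Figure D1:**
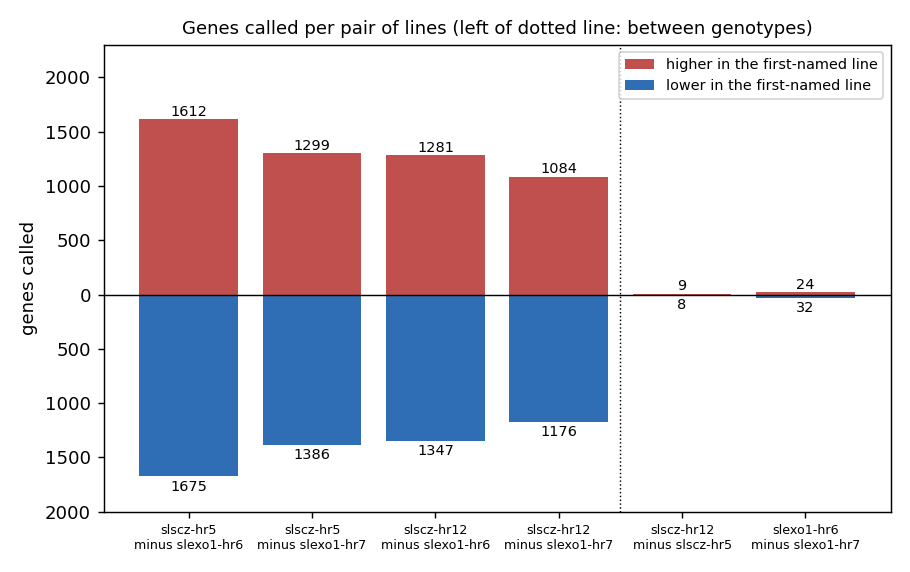
Number of genes called in each pair of lines (vertical axis, genes higher in the first-named line above 0 and genes lower below 0), for the 4 pairs between genotypes left of the dotted line and the 2 pairs within a genotype right of it. Pairs between genotypes had 2260 to 3287 genes, and the pairs within a genotype 17 and 56.

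Genes that were called in the same direction in all 4 line pairs numbered 1378 (8.51%), of which 624 were higher (3.85%) and 754 lower (4.66%) in *slscz*. For 1313 of them, 594 higher and 719 lower, the genotype contrast was also called and the 6 *slscz* libraries all lay on 1 side of the 6 *slexo1* libraries. Non-overlap of the genotypes held for 2453 of all genes tested (15.2%), with *slscz* above in 7.6% and below in 7.55%. The largest, most abundant and most significant genes named by identifier below come from these 1313.

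In a principal component analysis of the 12 libraries, the first component (44.3% of variance) held the *slscz* libraries between −49.8 and −19.6 and the *slexo1* libraries between 26.5 and 44.2. The second component (12.4%) set the libraries numbered 4 apart from the others in both genotypes. Their scores were 25.9 and 40.6 in *slscz* and 11.3 and 16.0 in *slexo1*, whereas the libraries numbered 2 and 3 had scores of −33.4 to −3.29 in *slscz* and −27.9 to 0.30 in *slexo1*. In each line the number 4 library was also the nearest to 0 on the first component. With the number 4 libraries alone (2 against 2) 1288 genes were called between the genotypes, and with numbers 2 and 3 alone (4 against 4) 4194. Here and elsewhere, "alone" refers to the mutant libraries, and all wild-type libraries stayed in these fits. The numbers are those of the sample descriptions and table columns (for *slexo1-hr7* the titles count the same libraries from 1 to 3), and no source used here says what they stand for. Of the listed genes called below, SlCASP1, SlMYB36, SlMYB36-b, SlNUC, Solyc07g008360, Solyc08g068190 and Solyc12g006110 did not pass in the number 4 libraries alone (adjusted p of 0.0519 to 0.517).

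**Figure D2:**
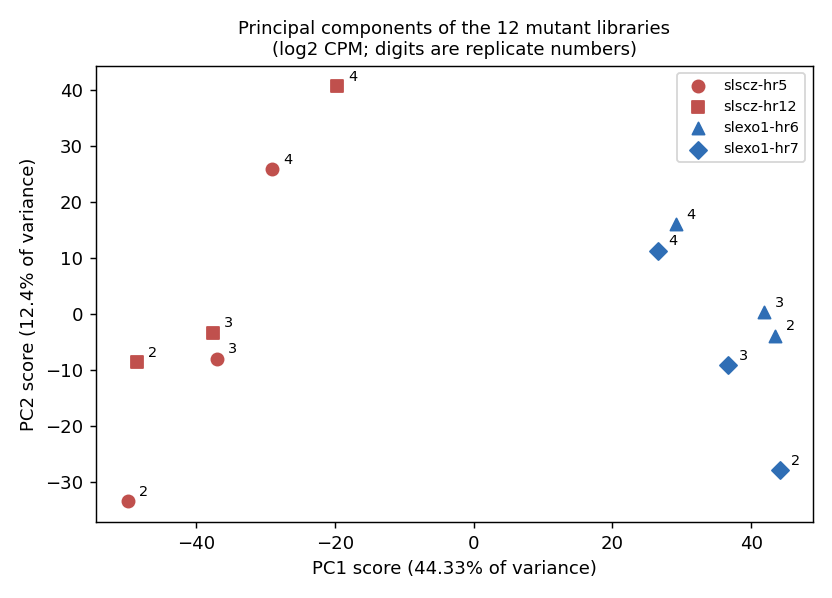
Scores of the 12 mutant libraries on the first (horizontal) and second (vertical) principal component of log2 CPM, each point 1 library with its replicate number, coloured by genotype and shaped by line. The *slscz* libraries lie at −19.6 or below on the first component and the *slexo1* libraries at 26.5 or above, and the number 4 libraries lie at 11.3 or above on the second.

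Among endodermal Casparian strip genes named in the study and their homologues, a pair of CASP homologues was higher in *slscz* and the MYB36 pair lower. Of 10 genes listed, 7 were tested, 1 did not pass the filter on low counts and 2 were not analysed here. Of the 7, 2 were higher and 2 lower (4 of 7, against 23.8% of all genes), and the list's median difference was −0.11, against −0.003 over all genes. SlCASP1 (Solyc06g074230) and SlCASP3 (Solyc09g010200) are homologues of the Arabidopsis CASP genes, whose membrane proteins mark where the strip forms. The study's reporters place SlCASP1 mainly in the endodermis but SlCASP3 also in cortex and exodermis, and the SlCASP3 protein away from the strip. SlCASP1 had 19.4, 27.7 and 38.0 CPM (lowest, median, highest) in *slscz*, against 11.6, 14.7 and 18.7 CPM in *slexo1* and 23.3 to 33.9 CPM in wild type. All *slscz* libraries lay above all *slexo1* libraries and overlapped wild type, a 1.89-fold difference (log2 0.92 ± 0.17, adjusted p = 0.000325). It was not called in all 4 line pairs, and in the number 4 libraries alone the difference was 0.53 (adjusted p = 0.16). SlCASP3 had 46.9, 65.6 and 81.8 CPM in *slscz*, against 23.9, 31.1 and 42.5 CPM in *slexo1* and 46.1 to 61.0 CPM in wild type, and it was higher in *slscz* in all 4 line pairs (log2 0.95 ± 0.15, adjusted p = 5.92e-05). For both genes *slexo1* lay below all wild-type libraries. The *slscz* libraries overlapped wild type, with the *slscz* median of SlCASP3 above the highest wild-type value. In bulk tips fewer cells of a type and less RNA per cell cannot be told apart.

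The MYB36 pair went the other way and by less. The study's hairy roots mutant in SlMYB36 lacked a Casparian strip, and those mutant in SlMYB36-b did not. SlMYB36 (Solyc07g006750), whose Arabidopsis counterpart switches on Casparian strip genes, had 5.37, 9.27 and 10.6 CPM in *slscz*, against 10.01, 13.4 and 15.8 CPM in *slexo1* and 13.0 to 16.0 CPM in wild type. Its homologue SlMYB36-b (Solyc04g077260) had 3.07, 5.08 and 6.04 CPM in *slscz*, against 6.12, 8.01 and 8.93 CPM in *slexo1* and 6.14 to 9.46 CPM in wild type. For SlMYB36-b alone the mutants did not overlap, and for both genes all *slscz* libraries lay below wild type. The differences were −0.56 ± 0.16 (adjusted p = 0.0128) for SlMYB36 and −0.63 ± 0.18 (adjusted p = 0.0117) for SlMYB36-b, and neither was called in all 4 line pairs. SlMYB36 was not called without line *slscz-hr5* (adjusted p = 0.175) or without *slexo1-hr6* (0.109), and SlMYB36-b not without *slscz-hr5* (0.101), *slscz-hr12* (0.05 after rounding) or *slexo1-hr7* (0.0643). Neither passed in the number 4 libraries alone (0.391 and 0.136), nor SlMYB36-b in numbers 2 and 3 alone (0.106).

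SlSHR (Solyc02g092370), a homologue of the ground tissue regulator SHORT-ROOT, SlCASP2 and SlSGN3, homologue of the receptor kinase that surveys the strip's integrity, did not pass the test. Their differences were −0.11 (95% interval −0.61 to 0.39), 0.20 (−0.43 to 0.82) and −0.18 (−0.49 to 0.12). Each of these intervals leaves room for a difference of more than 1.3-fold.

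The next list holds transcription factors that the study screened because of their enrichment in the exodermis. Of 20 listed, 15 were tested, 4 did not pass the filter and 1 was not analysed here, and 2 were higher and 4 lower in *slscz*, each of them also in all 4 line pairs and without overlap. This was 6 of 15 called, against 23.8% of all genes, and 6 of 15 in all 4 pairs, against 8.51%, with a list median of 0.22 (−0.003 over all genes). The list was chosen by the study for expression in another data set, not for these contrasts.

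SlNUC (Solyc09g074780), a zinc finger gene named after Arabidopsis NUTCRACKER, had 3.32, 4.51 and 6.47 CPM in *slscz*, against 0.246, 1.20 and 1.49 CPM in *slexo1* and 4.65 to 8.29 CPM in wild type. It was 4.46-fold higher in *slscz* (log2 2.16 ± 0.36, adjusted p = 8.83e-05), and it was *slexo1* that lay apart from wild type. SlMYB54 (Solyc10g081320) had 8.06, 9.10 and 13.0 CPM in *slscz*, against 2.95, 3.71 and 5.58 CPM in *slexo1* and 7.04 to 11.1 CPM in wild type (log2 1.29 ± 0.19, adjusted p = 3.29e-05). Again the *slscz* libraries overlapped wild type and the *slexo1* libraries did not.

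In 3 of the 4 lower genes the *slexo1* libraries overlapped wild type and the *slscz* libraries did not. Solyc03g093890 is called SlMYB13 in the study's guide table and *slmyb54-1* in its figure legend, which gives *slmyb13* to another gene. Solyc03g093890 had 1.92, 2.82 and 5.84 CPM in *slscz*, against 12.1, 13.2 and 14.8 CPM in *slexo1* and 11.9 to 16.2 CPM in wild type. It was 3.83-fold lower in *slscz* (log2 −1.94 ± 0.22, adjusted p = 1.16e-06), the largest fall of the list. SlMGP (Solyc01g099340), named after the Arabidopsis zinc finger gene MAGPIE, had 5.16, 5.70 and 9.80 CPM in *slscz*, against 10.9, 15.9 and 18.6 CPM in *slexo1* and 9.82 to 15.9 CPM in wild type (log2 −1.26 ± 0.19, adjusted p = 3.21e-05). SlNAC041 (Solyc01g009860) had 56.8, 66.2 and 79.2 CPM in *slscz*, against 119 to 152 CPM in *slexo1* and 94.9 to 104 CPM in wild type, the exception, in which wild type lay between the mutants without overlap (log2 −0.96 ± 0.08, adjusted p = 4.98e-08). SlMYB68 (Solyc11g069030) fell by 0.57 on the log2 scale (SE 0.08, adjusted p = 2.87e-05), with 20.6 to 23.6 CPM in *slscz*, against 32.2 to 35.8 CPM in *slexo1* and 30.1 to 35.3 CPM in wild type.

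SlATHB-5 (Solyc01g096320) sat at the threshold, with a difference of 1.11 ± 0.42 and an adjusted p of 0.0501 (limma-voom). It had 6.46, 8.36 and 36.1 CPM in *slscz*, against 2.48, 5.54 and 13.5 CPM in *slexo1* and 1.43 to 2.31 CPM in wild type. The mutants overlapped each other, and both lay above wild type. The highest *slscz* values, 24.1 and 36.1 CPM, came from the number 3 libraries of *slscz-hr5* and *slscz-hr12*, and the other *slscz* libraries had at most 9.21 CPM. Its adjusted p was 0.0224 with edgeR, 0.0446 with DESeq2 and 0.0209 with a replicate block on the 12 libraries (limma-voom). It was called under 11 of 31 alternatives only, with adjusted p of up to 0.262 over these fits (limma-voom, edgeR or DESeq2). The other 8 tested factors had differences between −0.22 and 0.61.

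**Figure D3:**
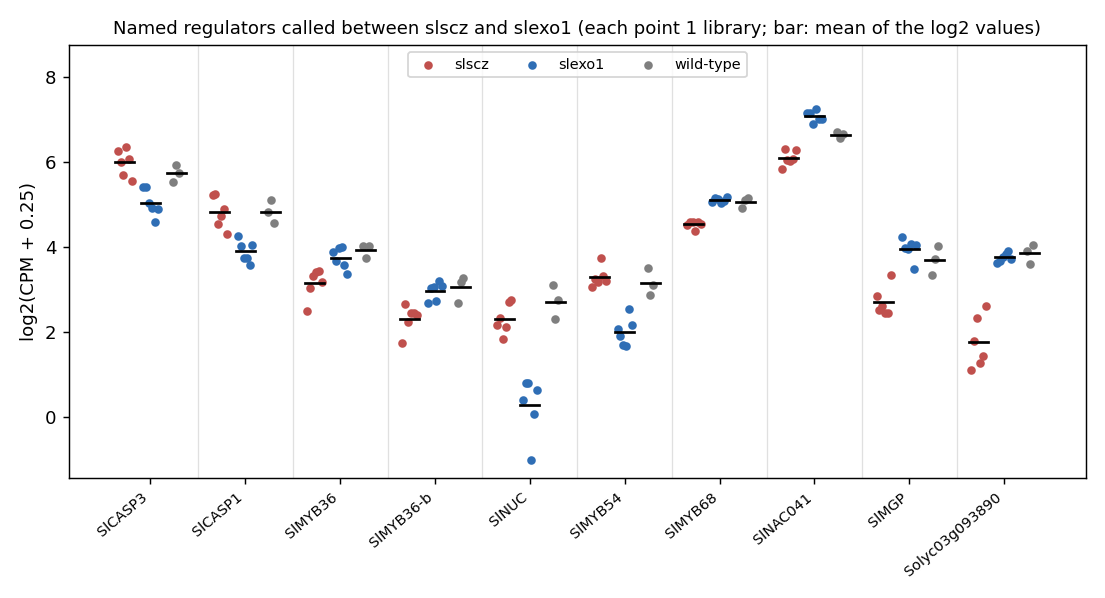
Level of the 10 named regulators and CASP homologues called between *slscz* and *slexo1* (vertical axis, log2 of CPM plus 0.25), each point 1 library and each bar the mean of the log2 values, with *slscz*, *slexo1* and wild type side by side for each gene. In SlNUC and SlMYB54 the *slexo1* points lie below the other groups, and in Solyc03g093890 and SlMGP the *slscz* points lie lowest, with 1.92 to 5.84 and 5.16 to 9.80 CPM.

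Lignin is polymerised in the wall from phenolic precursors by oxidative enzymes such as peroxidases and laccases. The genes described next were picked for their wall or phenolic annotation from genes that the study had found raised in a mutant in these same libraries, so their direction is no independent evidence and their count is read against nothing. They numbered 11. The filter removed 1, a laccase gene (Solyc05g052370). Of 10 tested, 4 were higher and 1 lower in *slscz*, and 3 of these 5 were called in all 4 line pairs. A peroxidase gene (Solyc07g049240) had 6.04, 7.82 and 15.4 CPM in *slscz*, against 1.28, 1.48 and 2.52 CPM in *slexo1* and 1.31 to 3.69 CPM in wild type (log2 2.17 ± 0.30, adjusted p = 1.21e-05). An oxidoreductase gene (Solyc11g010400) had 7.01, 11.9 and 17.1 CPM in *slscz*, against 0.798, 1.73 and 3.28 CPM in *slexo1* and 0.693 to 2.76 CPM in wild type (log2 2.58 ± 0.34, adjusted p = 8.11e-06). For both, *slscz* alone stood apart, as it did for the fasciclin-like arabinogalactan protein gene Solyc12g006110, with 9.59 to 17.3 CPM in *slscz*, against 2.71 to 8.42 CPM in *slexo1* and 4.16 to 6.14 CPM in wild type (log2 1.15 ± 0.21).

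The exception in direction was Solyc07g008360, listed as a 4-coumarate ligase gene (4CL1), the kind of enzyme that activates precursors of lignin. It had 0.355, 0.640 and 1.04 CPM in *slscz*, against 1.81, 3.62 and 8.17 CPM in *slexo1* and 0.693 to 1.23 CPM in wild type (log2 −2.36 ± 0.52, adjusted p = 0.00151). Here *slexo1* stood above the other groups, but the level was low, the gene was not called in all 4 line pairs, and in the number 4 libraries alone the difference was −1.57 (adjusted p = 0.159). An aldehyde dehydrogenase gene (Solyc08g068190) was higher by 0.48 ± 0.14 (adjusted p = 0.0119). It had 33.4 to 48.1 CPM in *slscz*, against 27.6 to 35.7 CPM in *slexo1* and 10.4 to 26.6 CPM in wild type. Both mutants thus lay above wild type, and the estimated counts were not whole in 15 of 15 libraries. The call was lost without line *slscz-hr5* (0.148), *slexo1-hr6* (0.0599) or *slexo1-hr7* (0.106) and with counts thinned to the smallest library (0.111). The 5 genes that did not pass, among them a laccase (Solyc06g050530) and the acyltransferase SlGPAT4, had differences between −0.61 and 0.50.

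The largest differences lay in genes that the sources used here know only by identifier. The 6 largest rises were 16.8-fold to 93.9-fold. Solyc12g042980 had 32.5, 50.1 and 114 CPM in *slscz*, against 0, 0.696 and 1.49 CPM in *slexo1* and 1.55 to 11.7 CPM in wild type (log2 6.55 ± 0.87, adjusted p = 8.11e-06). Solyc12g011023 had 38.5, 41.8 and 79.8 CPM in *slscz*, against 1.08, 2.75 and 4.71 CPM in *slexo1* and 4.89 to 6.75 CPM in wild type (log2 4.07 ± 0.30), although 14 of its 15 estimated counts were not whole, so that reads were shared with other transcripts. In these genes *slscz* stood far above both other groups.

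Solyc06g007960 was graded, with 49.0, 70.7 and 119 CPM in *slscz*, 2.31, 4.01 and 7.88 CPM in *slexo1* and wild type in between at 24.8 to 38.1 CPM (log2 4.08 ± 0.30, adjusted p = 4.35e-09). Solyc05g014000 had 3.96 to 8.42 CPM in *slscz*, against 0 to 0.991 CPM in *slexo1* and 2.98 to 6.69 CPM in wild type (log2 4.78 ± 0.65), so that *slexo1* lay apart. Solyc02g080790 and Solyc03g097870 were low in all groups but *slscz* (2.92 to 18.0 and 3.46 to 13.0 CPM in *slscz*, at most 1.98 and 1.48 CPM in *slexo1*, at most 0.693 and 1.19 CPM in wild type).

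The 6 largest falls were 30.6-fold to 46.4-fold by the fit. Solyc07g009230 had 4.62, 8.39 and 26.9 CPM in *slscz*, against 137, 383 and 644 CPM in *slexo1* and 44.8 to 87.1 CPM in wild type (log2 −5.14 ± 0.50, adjusted p = 1.99e-07). Wild type thus lay between the mutants, and the same held for Solyc10g005390, with 0.272, 3.45 and 6.53 CPM in *slscz*, against 52.9, 79.8 and 109 CPM in *slexo1* and 21.2 to 40.9 CPM in wild type (log2 −4.94 ± 0.53). In Solyc06g150109 wild type was as high as or higher than *slexo1* (0 to 1.36 CPM in *slscz*, 8.53 to 17.5 CPM in *slexo1*, 17.1 to 27.9 CPM in wild type). Solyc12g150125 had 0 to 2.92 CPM in *slscz*, against 7.71 to 29.0 CPM in *slexo1* and 3.99 to 11.3 CPM in wild type, with estimated counts that were not whole in 11 of 15 libraries.

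**Figure D4:**
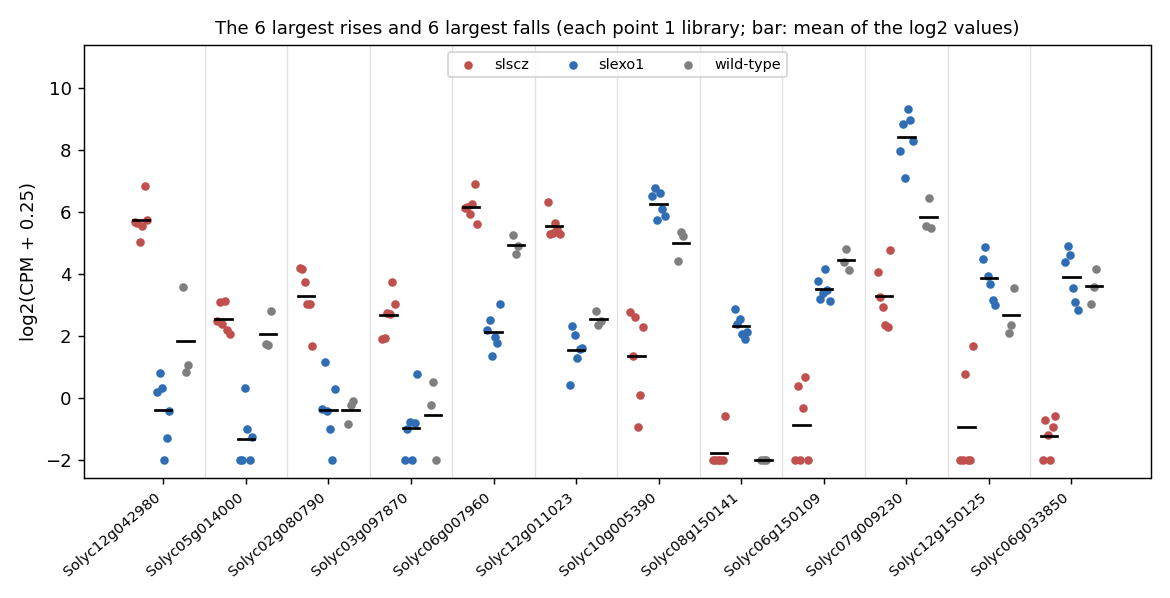
Level of the 6 genes that rose most and the 6 that fell most in *slscz* against *slexo1* (vertical axis, log2 of CPM plus 0.25), each point 1 library, each bar the mean of the log2 values, with *slscz*, *slexo1* and wild type side by side. For Solyc07g009230 and Solyc10g005390 the wild-type points lie between the mutants, and for Solyc08g150141 *slexo1* is at 3.51 to 7.02 CPM with wild type at 0.

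A search for genes with at most 3 counts in every library of 1 genotype and at least 10 in every library of the other found 8 that were low in *slscz* and 0 that were low in *slexo1*. This search was made after the values were seen, and a limit in counts favours the genotype with the smaller libraries, here *slscz*. With counts thinned to the smallest library it found 5 and 2, with 1 of the 8 among the 5, so the split of 8 against 0 is not a result, and the genes are given for their levels. Both other members of the largest falls belong here: Solyc06g033850 had 6 counts summed over the *slscz* libraries, against 519 in *slexo1* and 201 in the 3 wild-type libraries, a 69.6-fold lower scaled count (95% counting interval 31.8 to 191). Solyc08g150141 had 2 counts in *slscz*, against 156 in *slexo1*, a 62.8-fold lower scaled count (17.1 to 523). In wild type it had 0 counts in each library, where a count of 0 allows up to 3, so this transcript was seen in *slexo1* almost alone. Solyc04g051690 had 1 count in *slscz*, against 125 in *slexo1* and 10 in wild type, and Solyc02g032650 had 3, against 121 and 20. For the remaining 4 genes (Solyc04g063350, Solyc06g075745, Solyc07g009500 and Solyc12g008670) the summed counts were 4 to 6 in *slscz*, against 123 to 168 in *slexo1* and 13 to 57 in wild type. These intervals cover counting error only.

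Among abundant genes the differences were smaller. The 4 most abundant rises were Solyc09g092380 (log2 0.71 ± 0.07), Solyc05g014470 (0.55 ± 0.08), Solyc07g052510 (0.54 ± 0.07) and Solyc11g069430 (0.53 ± 0.09). Solyc09g092380 had 6849, 8314 and 8857 CPM in *slscz*, against 4373, 4791 and 5875 CPM in *slexo1* and 6848 to 7701 CPM in wild type (adjusted p = 1.8e-07). The *slexo1* libraries lay below both other groups, and the *slscz* median lay above the highest wild-type library. Of the 4 most abundant falls, Solyc07g017570 had 4446, 5330 and 5899 CPM in *slscz*, against 7528, 9662 and 11220 CPM in *slexo1* and 11350 to 15350 CPM in wild type (log2 −0.83 ± 0.10, adjusted p = 1.49e-06). Solyc06g076140 was placed alike, with 1376, 1983 and 2222 CPM in *slscz*, against 2398 to 3829 CPM in *slexo1* and 4463 to 5293 CPM in wild type. Both mutants thus lay below wild type in these genes, with *slscz* the lower. Solyc09g007920 (log2 −1.23 ± 0.13) and Solyc12g045037 (−1.38 ± 0.12) had wild-type levels within or near the *slexo1* range, but their estimated counts were not whole in 14 and 15 of 15 libraries. Solyc11g069430 did not pass in the number 4 libraries alone (adjusted p = 0.0716).

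The smallest p-values belonged to genes of intermediate size of effect. Solyc09g091130 had 13.6, 16.7 and 20.02 CPM in *slscz*, against 77.3, 110 and 130 CPM in *slexo1* and 58.7 to 72.8 CPM in wild type (log2 −2.64 ± 0.14, adjusted p = 1.98e-10). Solyc09g074850 fell by 1.63 (SE 0.09), Solyc04g064880 by 1.95 (SE 0.11) and Solyc09g011520 by 1.62 (SE 0.10). Solyc05g005080 had 288, 311 and 322 CPM in *slscz*, against 77.3, 84.0 and 124 CPM in *slexo1* and 171 to 230 CPM in wild type (log2 1.74 ± 0.11, adjusted p = 7.55e-10). Solyc11g066820 (1.80 ± 0.11) and Solyc04g079520 (2.03 ± 0.13) had wild type between the mutants too, whereas Solyc11g010600 had 311 to 360 CPM in *slscz* and 287 to 315 CPM in wild type, against 118 to 166 CPM in *slexo1* (1.23 ± 0.08).

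Wild type, which had no part in the contrast, lay between the mutants in most genes that differed. Its mean log2 CPM fell between the mutant means for 1241 of the 1774 higher genes (70%) and for 1530 of the 2074 lower genes (73.8%). A called gene has a wide gap between the mutant means, which makes a mean in between more likely, so these shares are read against nothing. It lay above both mutants in 10.9% of higher and 19.4% of lower genes, and below both in 19.1% and 6.8%. The *slexo1* mean was the nearer one for 56.8% of higher and 68.6% of lower genes, against 52.1% of the genes not called. These shares are descriptions of means over 6, 6 and 3 libraries.

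By chromosome, read from the identifiers, the median difference stayed between −0.02 and 0.03 on all 12 chromosomes, with 19.5 to 25% of genes called on each. Medians over 51 neighbouring tested genes stayed between −0.32 and 0.25. No chromosome or long stretch was shifted as a whole by as much as the 1.3-fold threshold. At a finer scale, runs of called genes with adjacent identifiers were found in 1 direction. In the order of 15863 tested genes (326 with identifiers numbered outside the order were left out), 7 runs of 5 to 7 neighbours were all lower in *slscz*, and 0 runs of that length were all higher, where 12.9% and 11% of the ordered genes were called lower and higher. Runs of 4 numbered 13 lower and 6 higher. The runs were looked for after the differences were known, and neighbours that are copies of each other can share reads.

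The strongest run lay on chromosome 7, with the 7 neighbours from Solyc07g009030 to Solyc07g009100. Their differences ranged from −4.16 to −2.42 (median −3.55), all were called in all 4 line pairs, and none overlapped between the mutants. Solyc07g009100 had 1.90, 3.41 and 5.72 CPM in *slscz*, against 31.6, 38.8 and 57.8 CPM in *slexo1* and 4.61 to 9.31 CPM in wild type (log2 −3.55 ± 0.29, adjusted p = 1.51e-08), and Solyc07g009070 had 3.34 to 8.52 CPM in *slscz*, against 24.8 to 35.7 CPM in *slexo1* and 12.6 to 22.9 CPM in wild type. Of the estimated counts of the 7 genes, 50.5% were not whole, so that the split among them is uncertain, but their sum is not touched by a split within the run. Summed over the run, the libraries had 7.88, 16.1 and 25.8 CPM in *slscz*, against 117, 157 and 181 CPM in *slexo1* and 29.5 to 68.2 CPM in wild type. The sum was 9.30-fold higher in *slexo1* by the ratio of means, and wild type lay in between. Solyc07g009230 and Solyc07g009500, given above, lie in the same stretch of identifiers, and of 24 tested genes flanking the run 5 were called lower, all after it, and 2 higher.

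**Figure D5:**
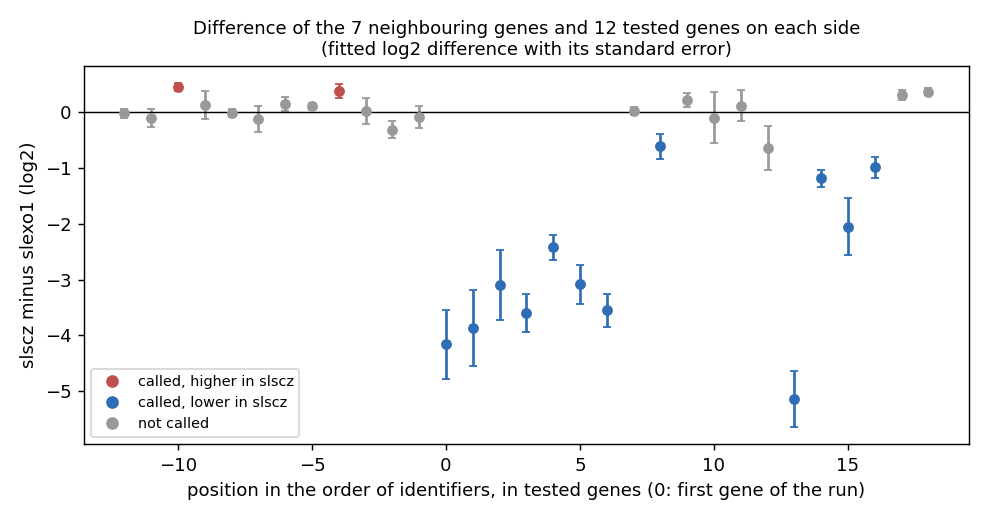
Fitted *slscz* minus *slexo1* difference (vertical axis, log2, with its standard error) of the 7 neighbouring genes from Solyc07g009030 to Solyc07g009100 and of 12 tested genes on each side, in the order of their identifiers (horizontal axis, position 0 is the first gene of the run). The run lies between −4.16 and −2.42, the genes before it at 0.44 or below with 2 of them called higher, and Solyc07g009230 after it at −5.14.

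The other 6 runs were of smaller size. Of their estimated counts, 53.3% were not whole on chromosome 12, 22.2% on chromosome 4 and 21.0% on chromosome 9. In the 3 runs of chromosome 1 this share was 0 to 20%. On chromosome 12, Solyc12g044930 to Solyc12g045037 (6 genes, median −1.37, with the abundant Solyc12g045037) summed to 719 to 1354 CPM in *slscz*, against 2335 to 3245 CPM in *slexo1* and 2597 to 2707 CPM in wild type. On chromosome 9, Solyc09g011490 to Solyc09g011590 (7 genes, median −1.09) summed to 361 to 522 CPM in *slscz*, against 932 to 1201 CPM in *slexo1* and 794 to 799.8 CPM in wild type. Chromosome 4 held 1 run, Solyc04g007000 to Solyc04g007090 (6 genes, median −1.11), with sums of 522 to 846 CPM in *slscz*, against 1197 to 1408 CPM in *slexo1* and 1029 to 1114 CPM in wild type. Chromosome 1 held 3 runs, with medians of −2.13 (Solyc01g102850 to Solyc01g102910), −1.15 (Solyc01g073750 to Solyc01g073820) and −0.65 (Solyc01g079880 to Solyc01g079970). In the last of these, no member was called in all 4 line pairs.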

How the data were processed

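Estimated counts per gene were deposited by the authors as 1 table of 34688 genes and 15 libraries, made by pseudoalignment of QuantSeq 3′ reads with kallisto (0.46.2 in the submitters' notes, another version in the study's methods). They were rounded to whole numbers here. Genes were filtered with filterByExpr (count of at least 10, total of at least 15), scaled by TMM, and fitted with limma-voom (limma 3.58.1, edgeR 4.0.16, R 4.3.3) over all 15 libraries with 3 genotype groups. A second model with 5 line groups gave the pairs of lines. P-values were adjusted by Benjamini-Hochberg over all tested genes, and a gene was called at an adjusted p of at most 0.05 and at least 1.3-fold. The fits were tested on simulated data. Level values are CPM on TMM-scaled library sizes. The 3 wild-type columns carry other numbers than the labels and were used as a group.

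The comparison, the gene lists and the rules were chosen with earlier results of these data known. By a rule, the text names, among the genes called in the contrast and in all 4 line pairs without overlap, the 6 largest rises and falls, the 4 most abundant of each and the 4 of each with the smallest p. The listed genes, the genes near 0 counts in 1 genotype and the runs of neighbours stand outside this rule, the last 2 kinds chosen after their values were seen. The reference table at hand held no gene with the identifiers used here, so lists by annotation were not used. The 3 listed identifiers that were not analysed here had no entry in the deposited counts. Alternatives were edgeR and DESeq2 (1.42.0) tests, other scalings, filters and thresholds, 12 libraries, a replicate block, random line effects, library weights, thinning and leaving out libraries, lines or numbers.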

Additional observations from a re-analysis of the deposited data

Results flagged for a closer look

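Of 218 groups of 6 libraries (109 named genes, each in *slscz* and *slexo1*), 16 held a library far from the other 5 by the share of the group's log2 range that separates it from the nearest library (Dixon's test). For independent normal values the limit used gives such a library in about 1 in 20 groups. Neighbouring genes and groups near 0 counts do not meet this, so the 16 are not read against that share. Where only 1 library has counts, as for Solyc04g051690 and Solyc08g150141 in *slscz*, the share is 1 by construction. In *slscz*, the library *slscz-hr5* 2 was the one apart for SlEXO1 (Solyc09g011120, share 0.682, 1 count), Solyc06g076140 (0.689, 1376 CPM), Solyc07g049240 (0.631, 15.4 CPM), Solyc09g011520 (0.669, 112 CPM) and Solyc12g011023 (0.651, 79.8 CPM). The library *slscz-hr12* 4 was apart for Solyc08g068190 (0.874, 33.4 CPM) and Solyc08g150141 (share 1, 2 counts), *slscz-hr12* 2 for Solyc07g009040 (0.75, 0 counts) and SlMYB68 (Solyc11g069030, 0.688, 20.6 CPM), and *slscz-hr5* 4 for Solyc04g051690 (share 1, 1 count). In *slexo1*, the library *slexo1-hr7* 3 was apart for Solyc01g073780 (0.878, 2.55 CPM), Solyc01g079920 (0.785, 20.9 CPM) and SlMGP (Solyc01g099340, 0.627, 10.8 CPM). The library *slexo1-hr7* 2 was apart for Solyc01g079950 (0.739, 4.18 CPM) and Solyc12g006110 (0.656, 2.71 CPM), and *slexo1-hr6* 4 for Solyc01g073800 (0.732, 2.15 CPM).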

How the results depend on the processing

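The count of 3848 genes stayed within 1.5 times of itself under every alternative except a threshold of 2-fold (1253) and the number 4 libraries alone (1288). It was 3925 with both edgeR and DESeq2, of which 3727 and 3710 were among the 3848, 2759 to 3546 without 1 line, and 3479 to 4115 without 1 library. The count in all 4 line pairs was 548 at 2-fold and 924 to 1436 without 1 library. Between the *slscz* lines, DESeq2 called 40 genes, a 2-fold threshold left 11, and leaving out 1 library gave 5 to 19. Between the *slexo1* lines, the 12 mutant libraries alone gave 26 and leaving out 1 library gave 20 to 62. The largest chromosome median was 0.0289, against −0.0268 with DESeq2 size factors, −0.108 without TMM, −0.0374 with numbers 2 and 3, −0.0276 with number 4, and −0.0339 to 0.036 without 1 library. Of 52 genes followed, 32 kept their call under every alternative. The 2-fold threshold alone ended the call of 13 genes whose difference was below it, and the number 4 libraries alone ended that of 12. The edited gene SlSCZ (Solyc04g078770) changed sign to −0.0219 without line *slscz-hr12* and to −0.365 in the number 4 libraries. No other gene followed did. The cause was not tested. Runs of neighbours lower in *slscz* numbered 6 or 7 without 1 library, 3 without *slscz-hr5*, 4 without *slexo1-hr7*, 2 at 2-fold and 0 with number 4 alone. Runs higher numbered 3 without a fold threshold and 1 without *slscz-hr12*. The recounts of runs and of within-genotype pairs, and the thinned search for genes near 0 counts, were added after seeing the data.

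With a replicate block on the 12 libraries, 3594 genes were called, 1443 in all 4 line pairs, 26 between the *slscz* lines and 40 between the *slexo1* lines. Same-numbered libraries of different lines had deviations that correlated at 0.12 to 0.42 (number 4), 0.03 to 0.18 (number 2) and −0.06 to 0.10 (number 3). A correlation over 0.1 was met by 6 of 6 pairs of number 4, 3 of 6 of number 2 and 0 of 6 of number 3. Among pairs of different numbers it was met by 2 of 36. The deviations of a line's libraries cancel out, so positive correlations of same-numbered libraries push the others down. The 2 of 36 is therefore no baseline. The number 4 libraries had positively correlated deviations in all 6 pairs. The main fit did not pair libraries by number. In 8 of 12 libraries the highest correlation was with the same number, a share that is read against nothing.

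Genes with few counts, such as SlEXO1 (1 to 23 in *slscz* libraries, 18 to 27 in *slexo1* libraries), have wide intervals, and the thinned counts (2726538 per library) gave 3424 genes.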
